A study of Mus musculus with 6 samples.

Results

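Neutrophils of orthotopic pancreatic tumours that carried none of the 3 marked neutrophil states were examined by single-cell RNA sequencing. Their members were cells chosen by counts of unique molecular identifiers (UMIs), the tags that count each captured transcript once. A cell needed a minimum of 500 UMIs and over 200 genes, with mitochondrial genes below 10% of its UMIs. S100a8, S100a9, Csf3r, Cxcr2, Hdc and Il1r2 together had to make up at least 1% of its UMIs. It could hold at most 1 UMI of the macrophage genes C1qa, C1qb and C1qc and none of the epithelial genes Krt8 and Krt18. Cells of the marked states were left out by 3 upper limits, namely 0.5% for the interferon genes Rsad2, Ifit1, Ifit3 and Isg15, 1% for Retnlg, Mmp8, Wfdc21 and Stfa2l1, and 0.5% for the chemokine genes Ccl3 and Ccl4. This left 14441 members of 74546 cells. They numbered 3221 in OE-Vector 1, 2880 in OE-MLKL 1, 5470 in OE-MLKL 2 and 2870 in OE-MLKL 3. The 21 genes of this rule chose the cells, so their levels are given as a description and support nothing.

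The tumours grew in the pancreas of wild-type C57BL/6 mice, 6 to 8 weeks old by the study's methods, from KPC cells, a cancer line of the mouse pancreas, and were taken 4 weeks after injection. The injected cells of the OE-Vector group held a control vector, and those of the OE-MLKL group overexpressed mouse Mlkl, the pseudokinase that ruptures the membrane in necroptosis. Both groups shared the host strain, the cancer line and the dissociation of the whole tumour, with no sort for neutrophils. The construct was in the injected cancer cells and not in the neutrophils, which came from the host. Of 6 samples, 3 per group, the count matrices analysed were OE-Vector 1 and OE-MLKL 1, 2 and 3, and those of the other 2 OE-Vector libraries were not analysed here. Each library is 1 tumour, so a difference between groups cannot be told apart from a difference between the OE-Vector 1 tumour and the others.

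Neutrophils are short-lived granulocytes that leave the bone marrow with their granules already filled. The granule proteins are made in sequence during maturation, and their transcripts largely disappear in mature cells. Growth factor and chemokine receptors such as Csf3r and Cxcr2 keep the cells alive and guide them. In tumours, neutrophils take on further programmes, among them cytokine production, responses to low oxygen and responses to interferon.

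Counts of the targeted gene, Mlkl, did not separate the groups in the cells read here. In cells outside the neutrophils Mlkl stood at 14.3 CPM (counts scaled to the same total in each library) in OE-Vector 1 and at 8.28, 12.5 and 16.4 CPM in OE-MLKL 1, 2 and 3. In the members it was at 2.60 CPM against 1.29, 1.94 and 4.02 CPM. The groups overlapped in both, and the group names below are those of the labels. Cells outside the neutrophils include host cells beside the injected cancer cells, and Mlkl was not read in the cancer cells alone. Whether reads of the construct were counted as Mlkl is not given in the sources used here. These values therefore do not measure the overexpression that the study reports. The members held 4227604 UMIs in OE-Vector 1 and 2319685 to 4633326 in the OE-MLKL libraries. Their median depth was 1153 UMIs per cell in OE-Vector 1, 688.5 in OE-MLKL 1, 740.0 in OE-MLKL 2 and 1304 in OE-MLKL 3. Members under 700 UMIs made up 3.23%, 52.3%, 40.8% and 2.23% in the same order, so many members of OE-MLKL 1 and 2 lay near the minimum of 500. After each cell was thinned to 500 UMIs the median number of genes was 341, 360, 360 and 369. Doublets were limited only by the C1q and keratin conditions, and no doublet caller was run.

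The members carried neutrophil markers that the rule did not use in every library. These 16 markers, among them G0s2, Mmp9, Clec4d and Trem1, summed to 6738 to 14771 CPM. They stood at 1409 to 2261 CPM in free RNA, measured in barcodes of at most 100 UMIs, and at 733 to 1194 CPM in cells outside the neutrophils. The summed level of Hdc, Il1r2, Cxcr2, Csf3r and G0s2 was 5426 to 10013 CPM, which the choice of cells fixed in part, since all but G0s2 are rule genes. Among transcripts of the earliest granules, Elane and Ctsg were at 0 in all libraries and Mpo was at 0.237 CPM in OE-Vector 1 and 0 elsewhere. Prtn3, of the same granules, had enough UMIs to pass the filter on low counts. Ly6g, the surface antigen used to stain mouse neutrophils, was sparse at 18.5, 8.62, 3.88 and 14.4 CPM.

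Markers of most other cell types were lower in the members than in the free RNA of the same library. The 10 macrophage and monocyte markers summed to 1393 CPM in the members of OE-Vector 1 and to 2117 to 2674 CPM in those of OE-MLKL, against 5009 to 7909 CPM in free RNA. Apoe made up most of that sum, and the monocyte gene Ly6c2 was above its free RNA in every library, at 96.0 to 147 CPM against 14.4 to 29.8 CPM. The sums hide a minority of members for which the macrophage and monocyte list reached 1% of UMIs. Their share was 4.62% (OE-MLKL 1), 3.25% (OE-MLKL 2), 0.767% (OE-MLKL 3) and 0.279% (OE-Vector 1). At 500 UMIs per cell, 5.76%, 3.75%, 0.976% and 0.248% of members held 5 or more Apoe UMIs, libraries in that order. Whether these members were doublets was not tested. T and NK cell markers summed to 229 CPM in OE-Vector 1 and to 93.7 to 133 CPM in OE-MLKL, cancer and epithelial markers to 52.3 CPM and 24.6 to 75.7 CPM. The eosinophil list was above its free RNA, at 89.6 CPM against 21.1 to 61.0 CPM, with free RNA at 2.2 to 14.8 CPM. Siglecf carried this list with 83.3, 15.5, 21.4 and 58.2 CPM, while the defining granule gene Epx was at 0 in all libraries. The basophil and mast cell list stood at 11.8 CPM in OE-Vector 1 and 2.6 to 9.9 CPM in OE-MLKL, below free RNA in all but OE-MLKL 1, where it was 9.92 CPM against 6.12 CPM, with Mcpt8 at 0 in all. The part of these transcripts in the results below was not tested.

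**Figure D1:**
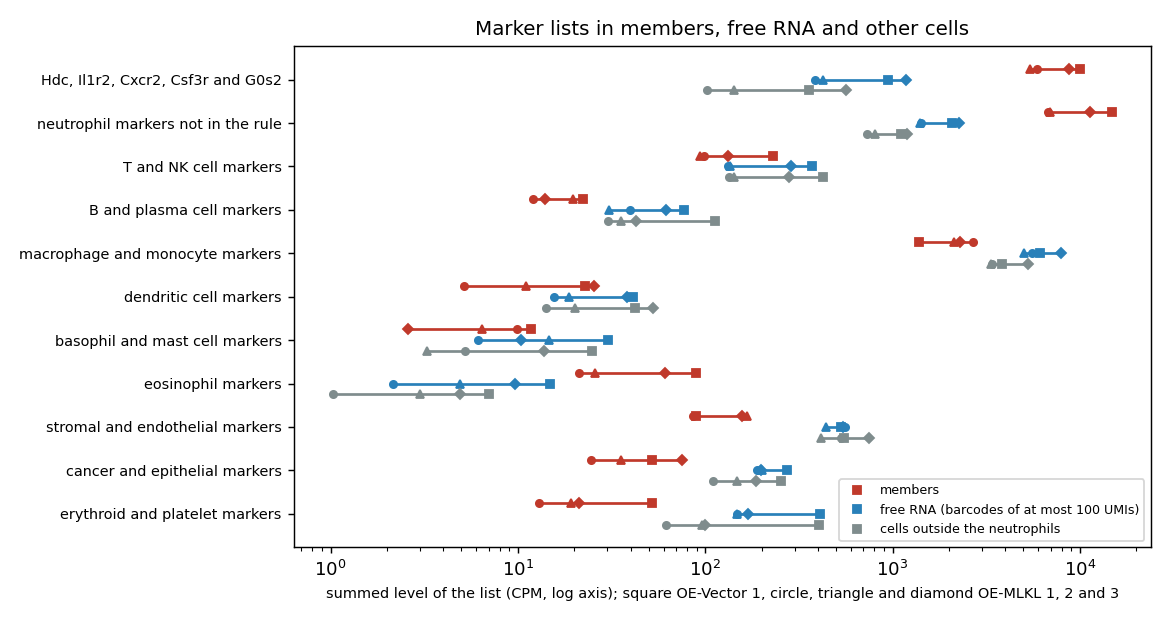
Summed level (CPM, log axis) of each marker list in the members (red), in free RNA from barcodes of at most 100 UMIs (blue) and in cells outside the neutrophils (grey), 1 point per library with squares for OE-Vector 1 and circles, triangles and diamonds for OE-MLKL 1, 2 and 3. The list of neutrophil markers not in the rule and the eosinophil list lie above free RNA in the members of every library, as does the top list, of which all but G0s2 are rule genes, and the summed macrophage, stromal, cancer and erythroid lists lie below it.

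S100a9 and S100a8, the calprotectin subunits, were the most abundant transcripts and are rule genes. Outside the rule the leading genes were Fth1, the ferritin heavy chain, at 12580.5 to 22743 CPM, the nuclear RNA Malat1 at 11132 to 26316 CPM and Tmsb4x, an actin-binding peptide, at 13863 to 21526 CPM. Il1b, which encodes interleukin-1 beta, followed with 11833 CPM in OE-Vector 1 and 8339.9, 7346 and 11842 CPM in OE-MLKL 1, 2 and 3. The groups overlapped in Il1b, and at 500 UMIs per cell at least 88.8% of the members of each library held an Il1b UMI. Actb, Tyrobp, Fau, Srgn, Fos and Junb were the other genes among the 15 most abundant, together with Cxcl2, Chil3 and Gm42418. Gm42418, a locus that overlaps ribosomal RNA sequence, was at 19701 CPM in OE-MLKL 2 and at 2292 to 4491 CPM in the other libraries. Its free RNA moved with it, at 34989.5 CPM in OE-MLKL 2 and 2431 to 10353 CPM elsewhere.

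Variation among members was led by S100a9, S100a8 and Cxcl2. The variance over the mean at 500 UMIs per cell, as the median over libraries, was 11.3 for S100a9, 7.0 for S100a8 and 5.7 for the chemokine Cxcl2. Cxcl2 was present in 71.5%, 57.5%, 48.9% and 74.6% of members, and at 5 UMIs or more in 34.1%, 24.8%, 15.3% and 32.9%. Cxcl10, a chemokine induced by interferon, had a ratio of 4.7 but was present in only 2.50% to 6.69%. At 5 UMIs or more Cxcl10 was present in 0.838% of members in OE-Vector 1 and in 0.243%, 0.567% and 0.627% in OE-MLKL 1, 2 and 3. Wfdc17 was present in 15.8%, 18.9%, 17.7% and 32.1%, and Ifitm1, an interferon-inducible membrane protein, in 38.6%, 31.0%, 27.2% and 48.3%. Fth1, G0s2, Saa3 and Stfa1 completed the 10 most variable genes.

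With the limits of the rule as given, the members were the larger part of the neutrophils in every tumour. They were 65.6% of the neutrophils in OE-Vector 1 (exact 95% binomial interval 64.3 to 67.0), 60.0% in OE-MLKL 1 (58.6 to 61.4), 74.0% in OE-MLKL 2 (73.0 to 75.0) and 69.3% in OE-MLKL 3 (67.9 to 70.7). The intervals cover counting error only. The OE-MLKL mean was 67.8% ± 7.16 (SD, n = 3), 2.15 percentage points above OE-Vector 1, which lay within the OE-MLKL range (exact two-sided permutation test, p = 1). Among all cells the share was 20.9% in OE-Vector 1 against 15.6%, 23.7% and 16.3%, a mean of 18.5% ± 4.51 (SD, n = 3), again overlapping (exact two-sided permutation test, p = 1). With 1 library against 3, this test cannot give a p below 0.25. The limits set the level of the share among neutrophils, which was 47.5% in OE-Vector 1 and 38.3% in OE-MLKL 1 with the 3 state limits halved. The direction among neutrophils turned under other settings. It was 2.30 points lower in OE-MLKL with at least 1000 UMIs per cell, 12.5 points lower with at least 5% neutrophil-gene UMIs, and 0.983 points lower without OE-MLKL 2.

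**Figure D2:**
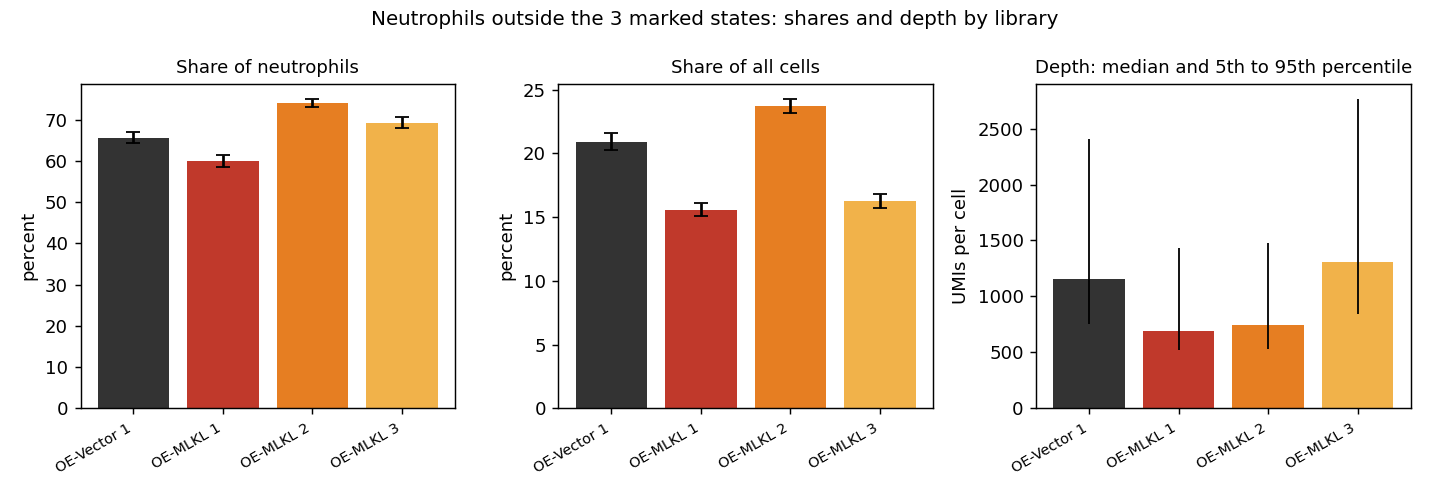
Bars give the share of members among neutrophils and among all cells (percent, with exact 95% binomial intervals) and the median UMIs per member (line from the 5th to the 95th percentile) in each of the 4 libraries. The OE-Vector 1 share of 65.6% lies inside the OE-MLKL range of 60.0% to 74.0%, and the median depth is lowest in OE-MLKL 1 at 688.5 UMIs.

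To ask whether these neutrophils differed with the injected cells, UMIs were summed over the members of each library and compared with the quasi-likelihood test of edgeR over 12045 genes. One gene passed at an adjusted p under 0.05, which is 0.0083% of the genes tested. Mcpt2, a chymase known from mucosal mast cells (chromosome 14 of GRCm38, 56042041 to 56044642, plus strand), fell from 42.1 CPM in OE-Vector 1 to 0.862, 1.08 and 0.473 CPM in OE-MLKL 1, 2 and 3. The OE-MLKL mean was 0.805 ± 0.307 CPM (SD, n = 3), which put the OE-MLKL libraries at -5.94 ± 0.44 (SE) on the log2 scale relative to OE-Vector 1, with adjusted p = 0.0319 by edgeR. The OE-MLKL values rest on 2, 5 and 2 UMIs and the OE-Vector 1 value on 178. The filter on low counts asked for enough UMIs in 1 library only, which Mcpt2 met in OE-Vector 1 alone. In every library the members lay below the free RNA, which held 133, 4.08, 21.1 and 10.0 CPM of Mcpt2. The adjusted p ranged from 1.23e-27 to 0.350 over the other settings, and Mcpt2 no longer passed under 6 of them. In those 6 settings the log2 fold change of Mcpt2 was -5.93 to -4.97. Mcpt1, a neighbouring chymase of closely similar sequence between which reads can be split, was also highest in OE-Vector 1, at 37.6 CPM against 0, 0.216 and 0.946 CPM, with 138, 1.44, 1.32 and 4.09 CPM in free RNA (adjusted p 0.0862 by edgeR).

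The count of genes that passed depended on OE-MLKL 3. Without it, and with OE-Vector 1 against 2 libraries, 2243 of 11671 genes passed, 896 higher (7.68%) and 1347 lower (11.5%). Without OE-MLKL 1 the count was 12 and without OE-MLKL 2 it was 64. The members of OE-MLKL 3 lay nearer to those of OE-Vector 1 than to those of OE-MLKL 1. The root mean square log2 distance over genes was 0.600 from OE-MLKL 3 to OE-Vector 1, 0.813 to OE-MLKL 1 and 0.667 to OE-MLKL 2, while OE-MLKL 1 and 2 were 0.502 apart. Depth per member grouped the libraries likewise, and its part in the result was not tested. At an unadjusted p under 0.05 edgeR gave 379 genes higher in OE-MLKL (3.15%) and 610 lower (5.06%), and DESeq2 called 38 genes (0.315%). The balance of directions rests on the scaling, since with library size alone 985 of the 1238 genes under that p were higher. Of the 20 genes named for this comparison, Mcpt2 alone passed the adjusted test of edgeR with all 4 libraries, and DESeq2 called 14 others of them, Chil3, Klf9, Mcpt1 and Ifi27l2a included. In the pooled neutrophils of the marked states, OE-Vector 1 lay on the same side of all 3 OE-MLKL libraries in each of these genes.

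Chil3, which encodes the chitinase-like lectin Ym1 of myeloid cells (chromosome 3, 106147554 to 106167564, minus strand), had the highest OE-MLKL level of the named genes. It was at 55.8 CPM in OE-Vector 1 and at 7814, 9396 and 2915 CPM in OE-MLKL 1, 2 and 3, a mean of 6708 ± 3379 (SD, n = 3). Every OE-MLKL library lay above OE-Vector 1, with OE-MLKL 3 the lowest of the 3. The log2 fold change was 6.63 ± 1.06 (SE), or 99.3-fold, with an adjusted p of 0.565 by edgeR that ranged from 2.32e-25 to 0.585 over the other settings. Free RNA held 116, 644, 821 and 447 CPM. The members therefore lay below their free RNA in OE-Vector 1 and above it in each OE-MLKL library. Chil3 has close paralogues, and how reads shared with them were assigned is not given in the sources used here.

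Among the other 9 genes with the smallest p on the higher side, the groups did not overlap. The choice by p favours such a split, so it is given as a description. Of all genes tested, 44.5% had OE-Vector 1 below all 3 OE-MLKL libraries in CPM. After TMM scaling, the scaling that edgeR uses, it was 27.9%. Klf9, a transcription factor induced by glucocorticoids, was at 11.4 CPM against 370.3, 449.8 and 105 CPM. Bcl2l15, a Bcl-2 family member, was at 5.91 CPM against 695, 469.9 and 93.4 CPM. In both genes OE-MLKL 3 was the lowest of the OE-MLKL libraries, as in Chil3. Pik3ip1, an inhibitor of PI3-kinase, was at 15.6 CPM against 165, 132 and 70.5 CPM. Syne1, a nuclear envelope protein, was at 11.6 CPM against 112, 69.5 and 65.5 CPM, and the unannotated gene Gm36723 at 16.6 CPM against 153, 159 and 113 CPM. Olfr1033, listed as an olfactory receptor, had no UMI in OE-Vector 1 and 57.8, 46.6 and 8.75 CPM in the OE-MLKL libraries, their mean at least 53.1-fold higher than the floor of 3 UMIs in OE-Vector 1, and OE-MLKL 3 the nearest to it. Phykpl, Gm4117 and 2200002D01Rik completed the set at 2.13 to 18.7 CPM in OE-Vector 1. On the opposite strand Gm4117 overlaps Vcan and Xrcc4, Phykpl overlaps Hnrnpab, 2200002D01Rik overlaps Yif1b, Gm36723 overlaps Gm47713 and Pik3ip1 overlaps Gm12592. Syne1 and Bcl2l15 overlap predicted genes on their own strand, and Klf9 overlaps Mir1192 on its own strand. The counts of these genes are less certain. In OE-Vector 1, 8 of the 10 higher genes stood below free RNA, and in the OE-MLKL libraries 2 or 3 of them did.

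On the lower side OE-Vector 1 was above all 3 OE-MLKL libraries in each of the 10 genes, which the choice by p again favours. Over all genes this held for 15.1% in CPM and 28.7% after TMM scaling. Ankrd37, a target of the hypoxia-inducible factor, was at 137 CPM against 32.8, 36.5 and 43.7 CPM, a log2 fold change of -2.15 ± 0.29 (SE) whose adjusted p was 0.463 by edgeR. It overlaps Ufsp2 and Lrp2bp on the opposite strand, and among the genes that follow Cd7 overlaps Gm11775 and Mmp12 overlaps Mmp1b there. Ifi27l2a, an interferon-stimulated gene, was at 709.6 CPM against 32.3, 39.3 and 99.6 CPM. Free RNA held 207 CPM of it in OE-Vector 1 and 34.7 to 47.7 CPM in OE-MLKL. Il15, a cytokine that sustains NK and memory T cells, was at 81.4 CPM against 11.2, 9.06 and 23.6 CPM. The fatty acid carrier Fabp5 was at 299 CPM against 54.3, 70.4 and 106 CPM, and Ly96, the partner of Tlr4 in sensing endotoxin, at 55.6 CPM against 22.8, 18.3 and 20.3 CPM. The other genes of this set are known from other cells. Cd7, of T and NK cells, was at 25.1 CPM against 2.16, 4.10 and 4.73 CPM. Of 14 tested T and NK cell markers, 8 were likewise lower at an unadjusted p under 0.05 (5.06% of all genes). Free RNA held 371 CPM of that marker list in OE-Vector 1 and 133, 136 and 288 CPM in OE-MLKL 1, 2 and 3. The members stood below it in every library, and the part of free RNA in this count was not tested. Mmp12, of macrophages, was at 21.8 CPM against 1.72, 0.432 and 2.36 CPM, and Pf4, of platelets and macrophages, at 46.6 CPM against 10.3, 15.5 and 17.3 CPM. In OE-Vector 1, Mcpt1, Mcpt2, Mmp12 and Pf4 stood below free RNA, and in OE-MLKL 1, 2 and 3 it was 8, 7 and 5 of the 10 lower genes.

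**Figure D3:**
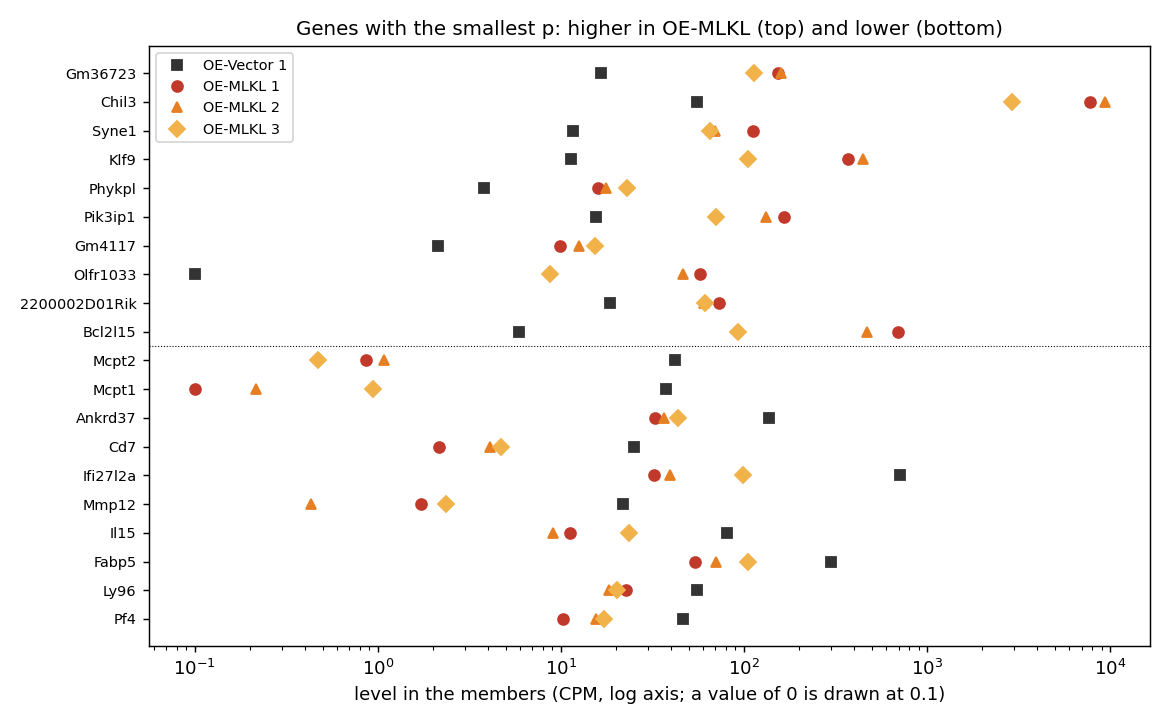
Level in the members (CPM, log axis, 0 drawn at 0.1) of the 20 genes with the smallest p outside the rule, 1 symbol per library, with the 10 higher in OE-MLKL above the dotted line and the 10 lower below it. OE-Vector 1 stands apart from all 3 OE-MLKL libraries in each gene, which the choice by p favours. Chil3 is at 55.8 CPM against 2915 to 9396 CPM. Of these genes Mcpt2 alone passed the adjusted test of edgeR, where DESeq2 also called 14 others.

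The genes of 13 neutrophil programmes were then counted by role. They comprised 270 genes, of which 266 were in the files and 257 were tested. None passed the adjusted test of edgeR with all libraries, while DESeq2 called 3 genes of the hypoxia and glycolysis list and 1 each of the granule, interleukin-1, oxidative stress and interferon lists. Over all genes DESeq2 called 38 of 12045 (0.315%). At an unadjusted p under 0.05, 67 were lower and 7 higher in OE-MLKL by edgeR, where 5.06% and 3.15% of all genes tested were with TMM scaling. The median log2 fold change was 0.04 over all genes tested and lay below 0 in 12 of the 13 lists. With scaling by library size alone the median of all genes moved to 0.33 and 11 lists stayed below 0. List medians below are given with TMM scaling, and counts at that p are read beside the 5.06% lower and 3.15% higher of all genes.

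Receptors and adhesion molecules, through which neutrophils sense and reach tissue, had a median of -0.58 over 27 genes, with 8 lower and 1 higher at an unadjusted p under 0.05. Cxcr4, which holds neutrophils in the bone marrow and marks aged cells, was at 725 CPM in OE-Vector 1 and at 367, 363 and 443 CPM in OE-MLKL. Ltb4r1, the leukotriene B4 receptor, was at 182 CPM against 78.9, 111 and 79.0 CPM. Tnfrsf1b, a TNF receptor, was at 237 CPM against 118, 107 and 152 CPM. In these 3 genes the groups did not overlap, and OE-Vector 1 was above all OE-MLKL libraries in 14 of the 27 genes in CPM (15.1% of all genes) and in 19 after TMM scaling (28.7%). The exception on the higher side was Cd177, a surface protein of maturing and circulating neutrophils, at 41.2 CPM against 192, 293 and 79.2 CPM.

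Granule and maturation genes went in both directions. Of 22 listed, 21 were in the files and 18 were tested, with a median of 0.02, 5 higher and 3 lower at an unadjusted p under 0.05. The higher genes were Chil3, Ngp, Stfa1, Stfa2 and Lcn2. The rule caps Retnlg, Mmp8, Wfdc21 and Stfa2l1 in every member. The Retnlg-high cells that it leaves out were above the members in Ngp, Stfa1, Stfa2 and Lcn2 in every library. The list is therefore not independent of the choice of cells. Lcn2, the siderophore-binding lipocalin of secondary granules, was at 366 CPM against 2317, 1827 and 732 CPM. Ngp, a secondary granule protein, was at 1.42 CPM against 195, 82.4 and 4.73 CPM, so OE-MLKL 3 lay close to OE-Vector 1 and near its free RNA of 4.83 CPM. Stfa1, a cysteine protease inhibitor, was at 23.2 CPM against 322, 309 and 37.4 CPM, again with OE-MLKL 3 near OE-Vector 1. The lower genes were Mmp9, Slpi and S100a11. Mmp9, the gelatinase of tertiary granules, was at 1571 CPM against 449, 565 and 1026 CPM, and S100a11 at 5319 CPM against 3058, 2559 and 2406 CPM. Of the 6 NADPH oxidase genes, which make the respiratory burst, none was under an unadjusted p of 0.05. Ncf1 was at 929.8 CPM against 418, 851 and 1466 CPM.

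Interleukin-1 and NF-kB genes had a median of -0.48 over 24 genes, with 5 lower and none higher at an unadjusted p under 0.05. The rule caps Ccl3 and Ccl4 in every member. The Ccl3-Ccl4-high cells that it leaves out were above the members in Il1rn, Tnf, Cxcl2 and Cxcl3 in every library. This list is therefore also not independent of the choice of cells. Il1rn, the interleukin-1 receptor antagonist, was at 632 CPM against 112, 113 and 232 CPM. Ptgs2, the inducible cyclooxygenase, was at 3005 CPM against 616, 592 and 1821 CPM. Il1a was at 43.3 CPM against 7.33, 9.28 and 27.7 CPM. The groups did not overlap in these 3 genes, and OE-Vector 1 was highest in 8 of the 24 genes in CPM (15.1% of all genes) and in 14 after TMM scaling (28.7%). Tnf overlapped with 259 CPM against 153, 437 and 271 CPM, and Cxcl2 was at 8212 CPM against 6599, 3862 and 7915 CPM, with OE-MLKL 3 close to OE-Vector 1.

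The list of tumour neutrophil, hypoxia and glycolysis genes held the largest share of lower genes among the 13 lists. Of its 28 genes 26 were tested, 18 were lower and none higher at an unadjusted p under 0.05, and 25 lay below 0, the exception being Jun. The median was -1.16 with all libraries, -0.87 with library size alone and -1.31 without OE-MLKL 3, where 23 genes passed as lower beside 11.5% of all genes. OE-Vector 1 was above all 3 OE-MLKL libraries in 21 of the 26 genes in CPM and in 23 after TMM scaling, beside 15.1% and 28.7% of all genes. Pgk1, a glycolytic kinase, was at 424 CPM against 92.3, 115 and 176 CPM. Aldoa, the glycolytic aldolase, was at 1096 CPM against 282, 427 and 553 CPM. Ldha, which makes lactate, was at 491 CPM against 317, 288 and 305 CPM. Hilpda, a lipid droplet protein induced by hypoxia, was at 85.9 CPM against 40.5, 34.7 and 40.0 CPM, and Bnip3, a mitophagy receptor, at 185 CPM against 92.7, 97.8 and 109 CPM. Cd274, the checkpoint ligand PD-L1 in the same list, overlapped with 218 CPM against 66.0, 66.7 and 247 CPM. Free RNA held 401 CPM of Pgk1 in OE-Vector 1 and 285 to 303 CPM in OE-MLKL, so the members stood near or below it. The same holds for Ldha, with 681 CPM and 500.2 to 707 CPM in free RNA.

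Interferon response genes outside the rule were also mostly lower, but the rule caps 4 genes of this response in every member, so the list is not independent of the choice of cells. Of 33 genes 31 were tested, 12 were lower and none higher at an unadjusted p under 0.05, and 29 lay below 0, the exceptions being Stat2 and Gbp5. The median was -1.11, or -0.81 with library size alone and -1.68 without OE-MLKL 3, where 28 genes passed as lower beside 11.5% of all genes. Irf7, the regulator of type I interferon production, was at 104 CPM against 20.7, 37.6 and 57.5 CPM. Oasl1 was at 38.8 CPM against 3.88, 4.75 and 16.1 CPM, and Isg20, an antiviral exonuclease, at 188 CPM against 39.2, 49.9 and 135 CPM. The order of the libraries was the same in all 3 genes. Gbp2 overlapped with 833 CPM against 199, 424 and 904 CPM. Over the whole list the summed level was 11534 CPM in OE-Vector 1, 6096 and 6014 CPM in OE-MLKL 1 and 2 and 10806 CPM in OE-MLKL 3. MHC class I genes had a median of -0.51 over 14 genes, with 3 lower at an unadjusted p under 0.05, beside 5.06% of all genes. H2-K1 overlapped with 1366 CPM against 1614, 1232 and 1762 CPM.

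The stress and survival lists are read beside the 5.06% of all genes that were lower at an unadjusted p under 0.05. For integrated stress response genes 2 of 18 were lower, namely Slc7a11, the cystine importer, at 745 CPM against 122, 93.0 and 375 CPM, and Ddit3, which encodes CHOP, at 150.2 CPM against 63.8, 49.9 and 98.6 CPM. Atf4 was at 183 CPM against 256, 224 and 189 CPM. Oxidative stress response genes had 5 of 16 lower, among them Txn1, or thioredoxin, at 2327 CPM against 701, 903 and 1088 CPM and Hmox1, haem oxygenase, at 102 CPM against 46.1, 26.8 and 57.5 CPM. Hmox1 was at 139.9 CPM in the free RNA of OE-Vector 1. Death and survival genes had 5 of 25 lower, among them the death receptor Fas at 149 CPM against 68.1, 55.5 and 75.4 CPM, while Mcl1, on which neutrophil survival depends, was at 2843 CPM against 2580.1, 1872 and 2426 CPM. Of the suppressor-associated genes 3 of 18 were lower, and the list median of -0.22 turned to 0.07 with library size alone. Arg1, which depletes arginine, was at 40.7 CPM against 16.4, 16.4 and 39.0 CPM, below its free RNA of 77.2 to 236 CPM. Arg2 was at 242 CPM against 154, 85.5 and 107 CPM. The lists of immediate-early and heat shock genes and of ageing and trafficking regulators had 1 of 17, near that share, and 2 of 17 lower, and in the latter Id2, an inhibitor of helix-loop-helix factors, was the 1 higher gene at 127 CPM against 744, 659 and 250.2 CPM.

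**Figure D4:**
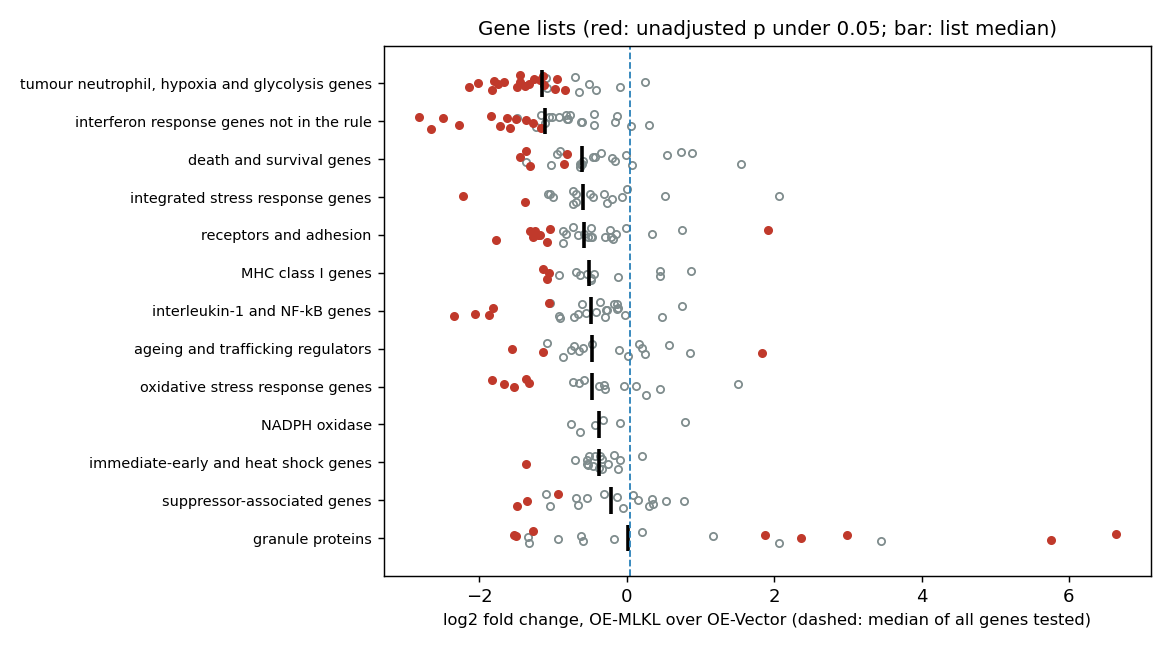
Log2 fold change in the members, OE-MLKL relative to OE-Vector, for each tested gene of the 13 lists (red, unadjusted p under 0.05 by edgeR), with the list median as a bar and the median of all 12045 genes, 0.04, as a dashed line. The hypoxia and glycolysis list and the interferon list lie farthest to the left, with medians of -1.16 and -1.11, and the granule list spreads to both sides of its median of 0.02.

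G0s2, the marker of these neutrophils outside the rule and an inhibitor of lipolysis, was highest in OE-Vector 1, where Chil3 was lowest. It was at 3306 CPM in OE-Vector 1 and at 258, 297 and 1331 CPM in OE-MLKL 1, 2 and 3, a log2 fold change of -2.70 ± 0.83 (SE) whose adjusted p was 0.565 by edgeR. At 500 UMIs per cell, a Chil3 UMI was present in 2.14% of members in OE-Vector 1 and in 92.6%, 92.2% and 53.3% in OE-MLKL. A G0s2 UMI was present in 51.3% against 6.11%, 8.70% and 29.5%. In both genes OE-MLKL 3 lay between OE-Vector 1 and the other libraries. To see whether the same cells carried one gene or the other, members were split within each library by a Chil3 UMI, a split chosen after these levels were seen. In OE-Vector 1 only 69 members held a Chil3 UMI, and Chil3 there was below its free RNA, so a UMI is not shown to be expression. In the OE-MLKL libraries a member without a Chil3 UMI among its 500 may still express Chil3. The split therefore cannot decide whether the same cells carried one gene or the other. Members with Chil3 held G0s2 in 46.4%, 5.96%, 8.60% and 26.9%, and members without it in 51.4%, 7.98%, 9.91% and 32.4%. Within each library the difference was smaller than that between OE-Vector 1 and any OE-MLKL library. Members with and without Chil3 differed more in Ifitm1, present in 17.4% against 39.0%, 30.4% against 39.4%, 26.2% against 38.7% and 40.1% against 57.6%. Cells of 1 library are not replicates, and these shares carry no test.

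**Figure D5:**
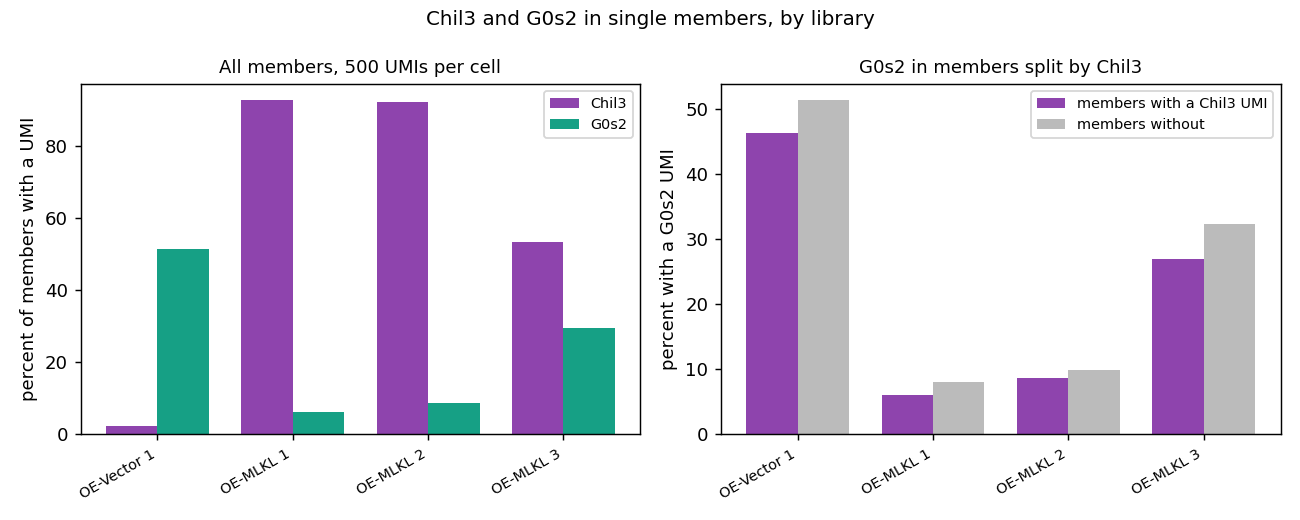
Percent of members with a Chil3 or a G0s2 UMI after thinning to 500 UMIs per cell (left), and percent with a G0s2 UMI among members with and without a Chil3 UMI (right), by library. Chil3 is present in 2.14% of members in OE-Vector 1 and 53.3% to 92.6% in OE-MLKL, and within each library the 2 bars on the right lie closer together than OE-Vector 1 lies to any OE-MLKL library. A member without a Chil3 UMI among its 500 may still express Chil3.

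Whether the difference between groups was itself different in the members and in the neutrophils of the marked states was tested with class and group in one edgeR fit, with the library as a block. Of 10984 genes 537 passed (4.89%), 140 with a higher effect in the members and 397 with a lower one. With library size alone 599 passed, but 421 were then higher and 178 lower, so the split of directions rests on the scaling. DESeq2 called 125 genes, and edgeR with at least 1000 UMIs per cell called 269. The pooled marked states were unlike in composition. In OE-Vector 1 the Ccl3-Ccl4-high cells were 1192 of 1686, whereas the Retnlg-high cells were the most numerous in each OE-MLKL library, at 1760, 1509 and 732 cells. The comparison was therefore repeated against the Ccl3-Ccl4-high neutrophils alone, where 21 of 11518 genes passed (0.182%), 6 higher and 15 lower.

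Of the 24 interleukin-1 and NF-kB genes, 10 passed against the pooled states, beside 4.89% of all genes, all with a higher effect in the members. Of these only Il23a and Tnfaip3 had a log2 fold change above 0 in the members, at 0.75 and 0.48. The others lay below 0 there, with Il1rn at -2.35, Cxcl3 at -2.05 and Il1a at -1.82, so they fell less than in the marked states. Against the Ccl3-Ccl4-high cells alone 2 passed, beside 0.182% of all genes. Over all 13 lists these counts were 63 and 8 genes. Tnf was at 259 CPM in OE-Vector 1 and at 153, 437 and 271 CPM in OE-MLKL in the members, and at 646 CPM against 132, 324 and 266 CPM in the pooled marked states, a difference of effects of 1.34 ± 0.16 (SE, adjusted p 2.23e-08 by edgeR). The Ccl3-Ccl4-high cells of OE-Vector 1, rich in Tnf, are part of that pool. Against the Ccl3-Ccl4-high cells alone Tnf did not pass (0.66 ± 0.20 SE, adjusted p 0.210 by edgeR). The neutrophil-attracting chemokine Cxcl1 passed in both, with differences of 1.55 ± 0.24 and 1.53 ± 0.34 (SE, adjusted p 1.65e-05 and 0.00937 by edgeR). Cxcl3 also passed in both, with 1.17 and 1.03. In the members it fell from 170 CPM in OE-Vector 1 to 68.5, 19.9 and 62.0 CPM in OE-MLKL. In the Ccl3-Ccl4-high cells it fell from 888 CPM to 169, 87.0 and 118 CPM. These cells, which the rule leaves out, were above the members in Cxcl3 and Tnf in every library. The counts for this list are therefore not independent of the rule.

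Granule genes had 9 of 17 passing against the pooled states, 8 of them with a lower effect, beside 4.89% of all genes. Against the Ccl3-Ccl4-high cells alone 2 passed. The Retnlg-high cells, the most numerous in the OE-MLKL pools, were above the members in Stfa2, Ngp and Stfa1 in every library. The count against the pool is therefore not independent of the rule. S100a11 was at 5319 CPM against 3058, 2559 and 2406 CPM in the members and at 4398 CPM against 5726, 4635 and 3991 CPM in the pooled marked states, a difference of effects of -1.32 ± 0.13 (SE, adjusted p 5.16e-10 by edgeR). Against the Ccl3-Ccl4-high cells the difference was -0.73 ± 0.16 (SE, adjusted p 0.00596 by edgeR). Lcn2 was the exception with a higher effect. In the members it was 366 CPM against 2317, 1827 and 732 CPM, and the difference was 0.77 ± 0.14 (SE) against the pooled states and 1.49 ± 0.20 (SE, adjusted p 1.08e-05 by edgeR) against the Ccl3-Ccl4-high cells. Receptor genes had 10 of 27 passing, 9 with a lower effect, among them Selplg, Trem1 and Itgam, while the atypical chemokine receptor Ccrl2 had a higher one. Against the Ccl3-Ccl4-high cells alone 1 receptor gene passed, and Selplg, Trem1, Itgam and Ccrl2 did not. In the hypoxia and glycolysis list 5 of 26 passed, 3 higher and 2 lower, and in the interferon list 2 of 31, both higher, beside 4.89% of all genes. Against the Ccl3-Ccl4-high cells alone no hypoxia gene and neither of these interferon genes, Cmpk2 and Ifit2, passed, while Ifitm1 and Ifitm2 passed with a lower effect. Chil3 did not pass in either fit. Its difference of effects was 0.16 ± 0.19 (SE, adjusted p 0.749 by edgeR) against the pooled states, where it was at 54.2 CPM in OE-Vector 1 and 6718, 6675 and 1995 CPM in OE-MLKL. Of the other genes named in the comparison of groups, Bcl2l15, Il15 and Fabp5 alone passed against the pooled states. None of them passed against the Ccl3-Ccl4-high cells. In the pooled states Klf9 was at 13.2 CPM against 265, 314 and 64.0 CPM, and Ifi27l2a at 872 CPM against 23.7, 19.5 and 135 CPM. The differences in these genes are therefore not shown to be particular to the members. Against the Ccl3-Ccl4-high cells the genes with a lower effect in the members also included the acute-phase glycoprotein Lrg1 at -1.56 ± 0.27, haptoglobin (Hp) at -1.04 ± 0.19 and Ifitm1 at -0.86 ± 0.17 (SE).

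The members were last set beside each marked state as a description, since the rule parted them by related genes. Beside the Retnlg-high cells, the members were lower in Stfa2, Ngp, Ifitm6, Cstdc5, Cstdc4 and Wfdc17 in all 4 libraries. The smallest log2 ratio over libraries, with 5 CPM added to each level, was -2.49 for Stfa2 and -1.29 for Wfdc17. Ngp was at 1.42, 195, 82.4 and 4.73 CPM in the members and at 31.1, 1476, 411 and 83.3 CPM in the Retnlg-high cells. The members were higher in AU020206, in the phosphatase Ptpn22 and in Clec4n, Gngt2, Egr2 and Egr3, of which Egr2 and Egr3 are immediate-early transcription factors. The smallest log2 ratio was 1.84 for AU020206 and 1.09 for Egr3. Beside the Ccl3-Ccl4-high cells the members were lower in Fnip2, Cxcl3, the niacin receptor Hcar2, Tnf and Il1rn in every library, with smallest log2 ratios of -1.38 for Fnip2 and -0.84 for Il1rn. In the other direction the leading gene, Arid4a, reached 0.57. Beside the interferon state they were lower in Ifit2, Cmpk2, Usp18, Oasl1 and Herc6, with smallest log2 ratios of -3.49 for Ifit2 and -2.80 for Herc6. This state held 19 and 23 cells in OE-MLKL 1 and 2.

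Many cells lay close to the limits of the rule. In the members, 290, 918, 1126 and 410 cells held 0.5 to 1% of the Retnlg group, and 186, 857, 858 and 329 neutrophils just outside held 1 to 2%. For Ccl3 and Ccl4, 364, 147, 297 and 255 members held 0.25 to 0.5%, with 422, 124, 230 and 282 neutrophils at 0.5 to 1%. For the interferon genes these were 316, 24, 53 and 102 members and 218, 17, 22 and 65 neutrophils outside. At the limit on neutrophil genes, 98, 83, 122 and 98 members held 1 to 1.2%, and 104, 72, 126 and 77 cells outside held 0.8 to 1%. Of the members, 48, 34, 85 and 47 shared a barcode with a cell of another library (1.18% to 1.64%), and without them the test of groups again called 1 gene.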

How the data were processed

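Single cells of whole dissociated tumours were sequenced with a droplet-based 3' method, and 4 of 6 libraries, 1 OE-Vector and 3 OE-MLKL, were analysed. The deposited files hold whole UMI counts for 32285 genes in every barcode, neither filtered nor normalised by the authors, on the mm10 build. The file headers name Cell Ranger 7.1.0 and the submitters' processing notes 2.1.1, and whether intronic reads were counted is not given in the sources used here. Total depth was 150591289 to 169978362 UMIs per library. Gene positions were taken from GENCODE on GRCm38.

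The rule above was applied to each barcode. CPM are UMIs scaled by the total of the summed members. Sums per library were compared with the quasi-likelihood test of edgeR 4.0.16 (robust, TMM scaling, filterByExpr, Benjamini-Hochberg at 0.05) in R 4.3.3, with 2 residual degrees of freedom, and the spread of the OE-MLKL libraries stood in for that of the lone OE-Vector library. Cells were not treated as replicates, and p-values measure the spread between tumours of 1 group only. limma 3.58.1 and DESeq2 1.42.0 were alternatives, with other cell and gene filters, scaling by library size, thinning to 500 UMIs and leaving out each OE-MLKL library. Shares were compared with exact permutation tests in Python 3.11.15 with scipy 1.17.1. The scripts were tested on simulated data.

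Named genes outside the rule were called genes or, to fill 10 in each direction, those of smallest p with a mean of at least 20 UMIs. Further named genes were the 15 most abundant and 10 most variable genes, up to 6 genes of each list by CPM or p, and the genes that differed most from each marked state with a mean of at least 50 CPM. The genes of the comparison of effects outside the lists, the split by Chil3 and a few list genes given for contrast were chosen after their values were seen. The members, lists and tests were chosen with earlier results of these data known. Some items are not reported here.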

Additional observations from a re-analysis of the deposited data

Results flagged for a closer look

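The difference between groups was itself different in the members and in the pooled marked-state neutrophils for 537 of 10984 genes by the test of that difference in edgeR. Against the Ccl3-Ccl4-high neutrophils alone it was different for 21 of 11518 genes. The pool differed in composition between libraries, and its part in the larger count was not tested.

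The barcode lists of the OE-Vector libraries whose matrices were not analysed here also drew attention. Of the members' barcodes, 98.5% were listed in OE-Vector 2 and 93.8% in OE-Vector 3, where 62.7% and 63.7% of all barcodes of the analysed libraries were listed. In the analysed libraries the members' barcodes were likewise listed in the other libraries, at a median of 2 or 3 UMIs, which is far below the minimum of 500 for a cell.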

How the results depend on the processing

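The count of genes that differed between groups, 1 with all 4 libraries, was 38 with DESeq2, 225 of 18629 with no filter on low counts and 4 with at least 1000 UMIs per cell. It was 0 with limma-voom, with library size alone, with a mean of at least 20 UMIs, with at least 5% neutrophil-gene UMIs, with at most 1 UMI of each other marker list and with thinning to 500 UMIs. At an unadjusted p under 0.05 these 6 settings gave 939, 1238, 776, 892, 1029 and 868 genes. Leaving out 1 OE-MLKL library gave 12 to 2243 genes, the highest without OE-MLKL 3. Leaving out members that shared a barcode with a cell of another library, chosen after seeing the data, gave 1. Over 259 values of the 20 named genes, the direction was kept in all, 180 kept their side of the threshold, 73 passed it newly and 6 no longer passed, all of Mcpt2.

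The count of genes whose difference between groups differed from that in the marked states, 537, was 125 with DESeq2, 269 with at least 1000 UMIs per cell and 21 against Ccl3-Ccl4-high neutrophils alone, and 441 to 650 when 1 OE-MLKL library was left out. The share of members among neutrophils, 2.15 points higher in OE-MLKL, turned to -2.30 points with at least 1000 UMIs per cell and -12.5 points with at least 5% neutrophil-gene UMIs, and ranged from -0.983 to 6.05 points when 1 OE-MLKL library was left out. The share among all cells kept its direction under its 7 alternatives, from -8.75 to -0.944 points. The causes were not tested.

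No paired analysis was possible because the analysed groups share 1 replicate number only. The members of OE-MLKL 1 held the fewest UMIs in all, 2319685, and genes with a few UMIs, such as Mcpt2 in the OE-MLKL libraries, are the least precise.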
